A study of Rattus norvegicus with 20 samples.

Results

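The enzymes that make and clear acetaldehyde were examined in a part of the ventral striatum that takes part in reward, the accumbens shell. The rule named 10 genes (Adh1, Adh5, Aldh2, Aldh1a1, Aldh7a1, Aldh9a1, Cat, Cyp2e1, Acss2 and Akr1a1), which act on ethanol, acetaldehyde, acetate or other aldehydes. Of these, 9 had a probe set under their own symbol in the array's gene table, 1 probe set each. The symbol Adh1 is not in that table. RefSeq lists it as a synonym of Adh1c, which has 2 probe sets, so the 10 genes, of 14217 that the array measures with a probe set of 1 gene, were read from 11 of its 31099 probe sets. Of these 11, 8 lay above the dim level, a mean of 6.65 over all arrays on the log2 scale, below which the lowest 33.3% of probe sets fall. The dim ones were the single Cyp2e1 probe set and both Adh1c probe sets.

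All animals were alcohol-preferring (P) rats, a line selectively bred for high voluntary ethanol drinking. The ethanol group (n = 10 animals) had ethanol solutions of 15 and 30% to drink in adolescence, and the water group (n = 10 animals) drank water and no ethanol. Each animal gave 1 array of accumbens shell RNA, and the titles number the animals separately. Every animal is of this 1 bred line, and no unselected line was compared. How much each animal drank, its age at sampling and the time since its last drink were not used here. Of 22 listed markers of medium spiny neurons, the main cell type of the striatum, 21 had a probe set and all 21 lay above the dim level. None of the 6 choroid plexus and ependyma markers with a probe set did. Of 6 markers of septum, pallidum and basal forebrain with a probe set, 4 lay above the dim level. In ethanol 1 of these was higher and 3 lower, with a median difference of -0.29 on the log2 scale (limma, smallest adjusted p = 0.539). Array medians lay between 7.93 and 7.98, and no pair of arrays was identical. Water animals 17, 19 and 20 stood apart, with means of the medium spiny neuron markers of 11.74, 11.94 and 11.41 against 12.17 to 12.85 in the other 17 animals, so results that moved without them are also given that way, those of the named pathway genes partly as counts.

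Ethanol is oxidised to acetaldehyde by alcohol dehydrogenases, by the microsomal cytochrome P450 encoded by Cyp2e1 and by catalase, which uses hydrogen peroxide. In liver the class I alcohol dehydrogenase does most of this work, whereas in brain, where that enzyme is scarce, catalase and Cyp2e1 are held to contribute more. Acetaldehyde is then oxidised to acetate, chiefly by the mitochondrial aldehyde dehydrogenase Aldh2, and acetate is joined to coenzyme A by Acss2. The other aldehyde dehydrogenases and the aldehyde reductase Akr1a1 act on retinal and on aldehydes from amino acids, polyamines, lipids and sugars.

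None of the 8 member probe sets above the dim level differed between ethanol and water animals (limma, Benjamini-Hochberg over all 20695 probe sets tested, threshold 0.05). Over all probe sets tested 0.0966% passed. At an unadjusted p under 0.05 the count of members was also 0 of 8, where 12.1% of all probe sets tested lay under that level. Of the 8, 4 were higher and 4 lower in ethanol, and their median difference was 0.00037 on the log2 scale, against a median of -4.26e-07 over all probe sets tested. The median size of their differences, regardless of sign, was 0.041, against 0.058 over all probe sets tested. For every member the values of the ethanol and water animals overlapped, and how many of all probe sets do so was not counted. The 95% intervals bound what may have gone unseen. The widest, for Aldh1a1, ran from a fold of 0.846 to 1.26, and the intervals of the other 7 lay between folds of 0.862 and 1.16. For Adh5 and Akr1a1 the intervals were narrowest, at 0.965 to 1.07 and 0.925 to 1.03.

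**Figure D1:**
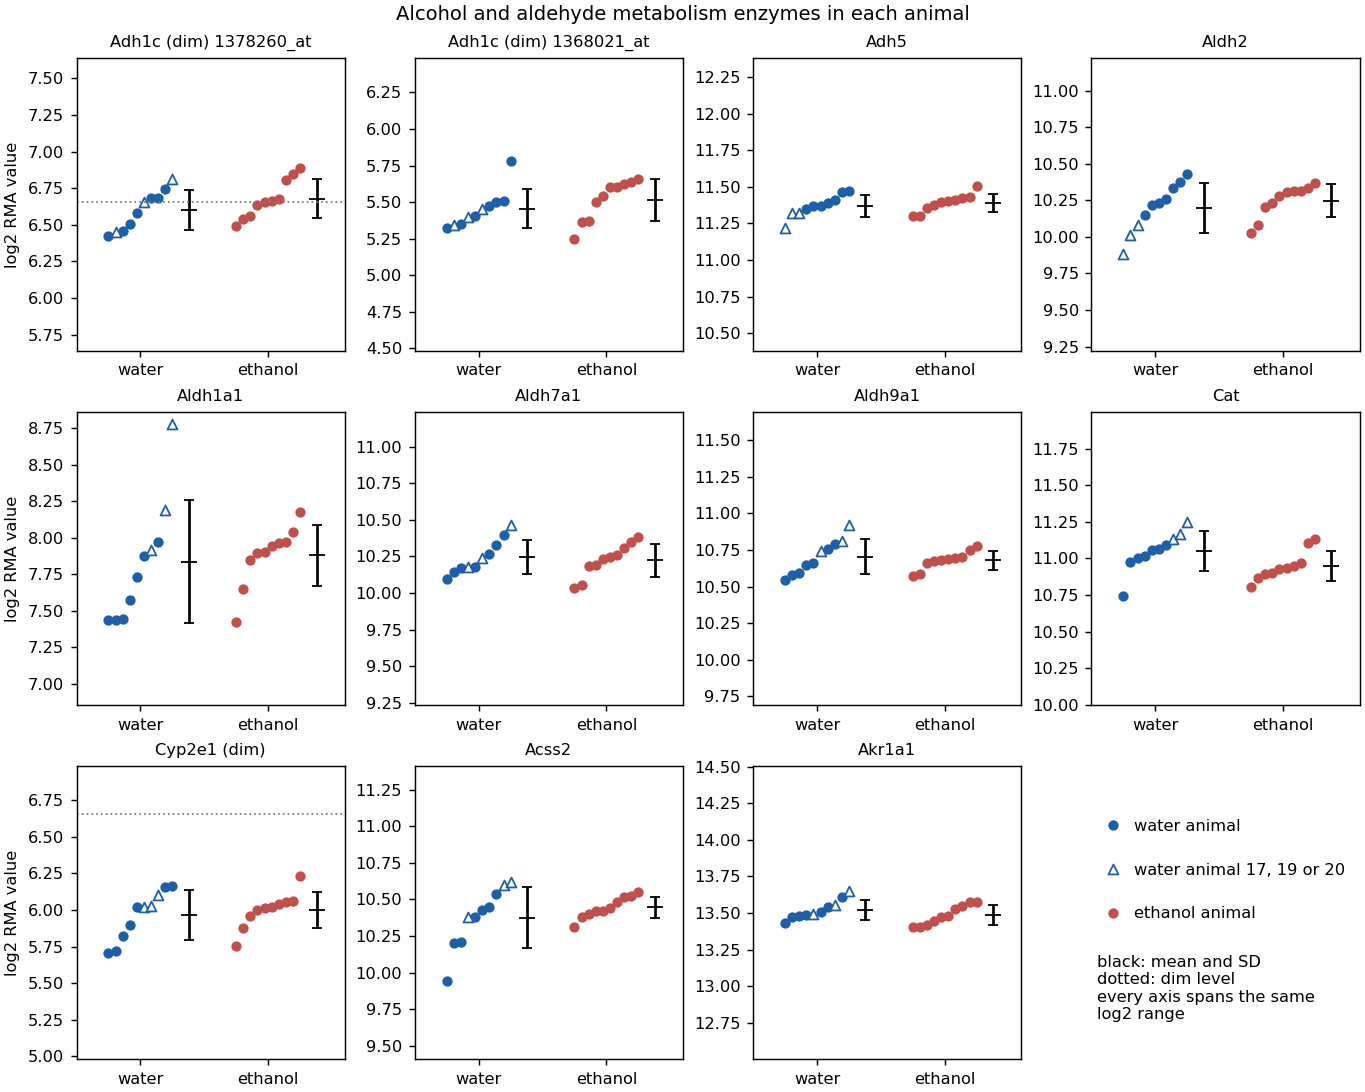
Log2 RMA value of each animal for the 11 member probe sets, in water (blue) and ethanol (red), with mean and SD in black; open triangles are water animals 17, 19 and 20, and every panel spans the same log2 range. The groups overlap in every panel, and Aldh1a1 has the widest spread, with water animal 17 at 8.78.

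Of the enzymes that act on ethanol itself, the class I alcohol dehydrogenase and Cyp2e1 gave only dim signal. The brighter Adh1c probe set had a lowest, median and highest value of 6.49, 6.66 and 6.89 in ethanol and 6.43, 6.62 and 6.81 in water, on either side of the dim level. The dimmer one had 5.25, 5.57 and 5.66 in ethanol and 5.33, 5.43 and 5.78 in water. Cyp2e1 had 5.75, 6.02 and 6.23 in ethanol and 5.70, 6.02 and 6.16 in water, so every animal of both groups lay below the dim level. In the fit without a filter on dim probe sets, both Adh1c probe sets were higher in ethanol, by 0.08 and 0.06, and neither passed (limma, adjusted p = 0.654 and 0.73). Cyp2e1 differed by 0.04 (interval -0.10 to 0.17, adjusted p = 0.867). RMA compresses differences of dim probe sets, so these values bound neither enzyme closely.

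The other alcohol dehydrogenases followed the same division. Adh4, Adh6a and Adh7, enzymes of liver and of epithelia, had dim probe sets with means of 5.14, 5.70 and 4.44 over all arrays. Adh5, the class III enzyme that clears formaldehyde as its glutathione adduct and reduces S-nitrosoglutathione, was well above the dim level in all 20 animals. It had a lowest, median and highest value of 11.30, 11.40 and 11.51 in ethanol and 11.22, 11.37 and 11.47 in water. The groups thus lay within a narrow band, and 9 of 10 ethanol animals fell within the range of the water animals. Adh5 differed by 0.02 ± 0.04 (SE; adjusted p = 0.81).

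Catalase, the peroxisomal enzyme that can oxidise ethanol with hydrogen peroxide, had the smallest p-value of the 8. Cat had a lowest, median and highest value of 10.80, 10.93 and 11.14 in ethanol and 10.75, 11.06 and 11.25 in water. Of the 10 ethanol animals 8 lay below the water mean, and all 10 within the water range. Cat differed by -0.10 ± 0.05 (SE; interval -0.21 to 0.01), and it did not pass (unadjusted p = 0.0708, adjusted p = 0.447). Single animals set the ends of the water range. Without water animal 12, the lowest, the difference was -0.14 (adjusted p = 0.25), and without water animal 20, the highest, it was -0.08. Without water animals 17, 19 and 20 it was -0.05 (adjusted p = 0.782). Without water animals 12, 17 and 20 it was -0.11, with an interval of -0.20 to -0.01, an unadjusted p of 0.0323 and an adjusted p of 0.449.

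Aldh2, the mitochondrial enzyme with the main part in acetaldehyde oxidation, did not differ detectably. It had a lowest, median and highest value of 10.02, 10.29 and 10.37 in ethanol and 9.88, 10.22 and 10.43 in water. All 10 ethanol values lay within the water range, whose low end was set by water animals 17, 19 and 20. The difference was 0.05 ± 0.06 (SE; interval -0.08 to 0.18, adjusted p = 0.753). Its sign turned without those 3 animals, at -0.04 (interval -0.15 to 0.07, adjusted p = 0.818).

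Aldh1a1, a cytosolic enzyme that makes retinoic acid from retinal and is a marker of a subset of midbrain dopamine neurons, varied most among the 8. Its within-group SD was 0.33, against a median of 0.14 over all probe sets tested. It had a lowest, median and highest value of 7.42, 7.92 and 8.17 in ethanol and 7.43, 7.80 and 8.78 in water. The highest value was that of water animal 17, with the next water value at 8.19. The SD was 0.42 between water and 0.21 between ethanol animals. The difference was 0.04 ± 0.14 (SE; adjusted p = 0.909). With 1 animal left out it ranged from 0.00046 (without water animal 14) to 0.15 (without water animal 17, adjusted p = 0.635). Without water animals 17, 19 and 20 it was 0.24, with an interval of 0.04 to 0.45, an unadjusted p of 0.0233 and an adjusted p of 0.372. Those animals were set aside for their neuronal markers, not for Aldh1a1, but animals 17 and 20 hold the highest 2 of the water values, so leaving them out lowers the water mean.

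The aldehyde dehydrogenases of amino acid and amine breakdown were nearly level between groups. Aldh7a1 (antiquitin), which oxidises the semialdehyde of lysine breakdown, had 10.04, 10.24 and 10.38 in ethanol and 10.10, 10.21 and 10.47 in water (lowest, median and highest). It differed by -0.02 ± 0.05 (SE; adjusted p = 0.878). Aldh9a1, which oxidises aminobutyraldehyde and the trimethyl aldehyde of carnitine synthesis, had 10.57, 10.69 and 10.78 in ethanol and 10.54, 10.70 and 10.92 in water. All 10 ethanol values lay inside the water range. It differed by -0.03 ± 0.05 (SE; adjusted p = 0.835), and leaving out water animals 17, 19 and 20 turned this to 0.03 (adjusted p = 0.847).

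Acss2, which makes acetyl-CoA from acetate in the cytosol and nucleus, was less variable among ethanol animals. It had a lowest, median and highest value of 10.31, 10.43 and 10.55 in ethanol and 9.94, 10.40 and 10.62 in water. The ethanol values all lay inside the water range, and only 5 of 10 water values inside the ethanol range. The SD was 0.07 between ethanol and 0.21 between water animals. The water group's low end was animal 12, with the next value at 10.20. Acss2 differed by 0.07 ± 0.07 (SE; adjusted p = 0.665), by 0.02 to 0.10 with any 1 animal left out, and by 0.14 when water animals 17, 19 and 20 were left out (adjusted p = 0.447). Akr1a1, the aldehyde reductase that reduces aldehydes to alcohols with NADPH, had 13.40, 13.48 and 13.58 in ethanol and 13.43, 13.50 and 13.65 in water. It differed by -0.04 ± 0.04 (SE; adjusted p = 0.665).

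**Figure D2:**
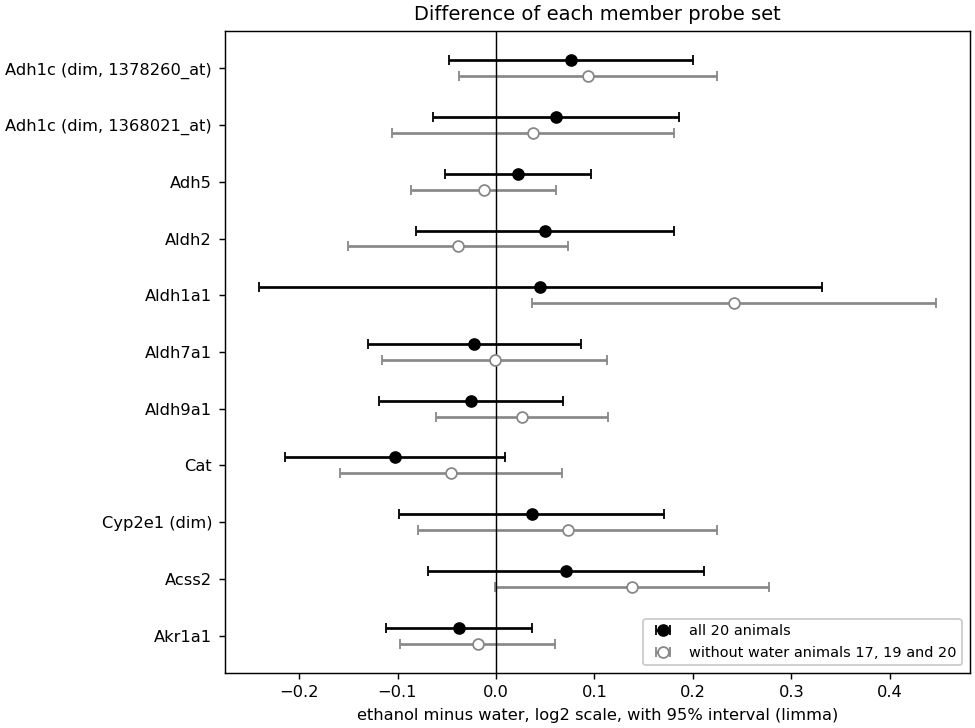
Difference of each member probe set (ethanol minus water, log2 scale) with its 95% interval from limma, for all 20 animals (black) and without water animals 17, 19 and 20 (grey, open). Every black interval includes 0; of the grey ones only that of Aldh1a1 does not (0.04 to 0.45), and its adjusted p is 0.372.

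The spread between animals was wider in water for 7 of the 8 members, with a median ratio of the water to the ethanol SD of 1.41. Over all probe sets tested this ratio was 1.47, and 81.3% of probe sets had the larger SD in water, so the members did as most probe sets did. Water animal 20 held the highest water value of 5 of the 8 members (Aldh7a1, Aldh9a1, Cat, Acss2 and Akr1a1), and water animal 17 the lowest of Adh5 and Aldh2 and the highest of Aldh1a1. Water animal 14 held the lowest value of Aldh1a1, Aldh7a1 and Aldh9a1, and water animal 12 that of Cat and Acss2. In ethanol, animal 5 held the highest value of 4 members (Aldh2, Aldh1a1, Aldh7a1 and Acss2) and animal 8 of 3 (Aldh9a1, Cat and Akr1a1), while the lowest values were spread over 6 animals. How often each animal held the highest or lowest value over all probe sets was not counted. The median correlation of an array with the other arrays was 0.972 for water animal 20 and 0.98 for water animal 17, the lowest of the 20.

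The sequences before the starts of 5 members are printed here. They set the dim members (Adh1c and Cyp2e1) and the most variable one (Aldh1a1) beside members well above the dim level (Adh5 and Cat). Each stretch is the 120 bases just before the RefSeq start in the assembly GRCr8. Capitals mark the letters TATAAA of a TATA box, the letters CCAAT of a CCAAT box and the letters GGGCGG of a GC box, searched on both strands, with no overlap between them. A match on the other strand appears as its reverse complement, as at the start of the Adh5 stretch. The Adh1c stretch holds none.
Adh1c (chr2:229470583-229470702, plus strand): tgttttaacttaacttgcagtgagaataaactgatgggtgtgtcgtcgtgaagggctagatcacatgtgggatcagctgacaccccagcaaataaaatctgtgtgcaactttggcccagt
Cyp2e1 (chr1:205269847-205269966, plus strand): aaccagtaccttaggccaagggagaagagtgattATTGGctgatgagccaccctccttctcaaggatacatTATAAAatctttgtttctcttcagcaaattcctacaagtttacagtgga
Aldh1a1 (chr1:227537500-227537619, plus strand): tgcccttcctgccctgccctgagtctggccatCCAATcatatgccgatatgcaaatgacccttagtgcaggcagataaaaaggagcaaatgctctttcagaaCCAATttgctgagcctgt
Adh5 (chr2:229648437-229648556, plus strand): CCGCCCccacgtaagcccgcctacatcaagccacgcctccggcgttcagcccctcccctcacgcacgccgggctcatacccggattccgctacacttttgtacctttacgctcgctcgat
Cat (chr3:110329527-110329646, minus strand): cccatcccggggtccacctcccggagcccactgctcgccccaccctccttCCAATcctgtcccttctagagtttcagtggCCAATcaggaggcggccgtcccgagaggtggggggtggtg

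RefSeq windows of 300 bases (250 before to 50 after the start) matched 9 of the 10 genes, and the one for Aldh2 was not used here. Cyp2e1 was the only one of the 9 with TATAAA in its window, which 14.2% of all 33469 windows hold. CCAAT was in the windows of 8 of the 9 (all but Akr1a1) and in 37.5% of all windows. GGGCGG was in those of Adh5, Aldh7a1, Aldh9a1 and Acss2, and in 33.1% of all. Adh1c, Cyp2e1 and Aldh1a1 had 3, 1 and 1 CpG dinucleotides, below the median of 7 over all windows, and the other 6 had 13 to 28. These matches describe letters and name no bound factor.

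The wider pathway was read from 12 lists of 167 genes in all, counted once each, of which 150 had a probe set of 1 gene and 125 were above the dim level. Each gene was read from the brightest of its probe sets. None of the 125 differed between groups (limma, adjusted over all probe sets tested), where 0.0931% of all 10746 genes tested did. The smallest adjusted p was 0.173. At an unadjusted p under 0.05, 7 of the 125 (5.6%) were under that level, all 7 higher in ethanol and 0 lower, against 10% of all genes tested (5.24% higher and 4.77% lower). Of the 125, 71 were higher and 54 lower in ethanol. The median size of their differences was 0.052, against 0.051 over all genes tested. The members are among the 125 and in the counts by list. Of the 33 named pathway genes, 15 had a difference over 1.5 times smaller when water animals 17, 19 and 20 were left out, 6 turned sign, 3 had one over 1.5 times larger and 9 moved less.

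The aldehyde dehydrogenases (15 of 20 listed tested, 8 higher and 7 lower) had a median difference of 0.00069. Aldh1l2, the mitochondrial enzyme of folate metabolism, differed by 0.11, the fatty aldehyde enzyme Aldh3a2 by -0.08 and Aldh3b1 by 0.20, with adjusted p-values of 0.46, 0.506 and 0.513. Of 14 aldo-keto and carbonyl reductases tested 7 were higher and 7 lower (median -0.01). Cbr3, a carbonyl reductase, was 0.53 higher in ethanol, the largest difference among the 125, but its interval ran from -0.07 to 1.13 (adjusted p = 0.462). Cbr3 differed by 0.04 without water animals 17, 19 and 20. Dcxr, which reduces xylulose and dicarbonyls, differed by -0.13 and Dhrs3, a retinal reductase, by 0.11 (adjusted p = 0.435 and 0.534).

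Among the enzymes that act beside catalase and Cyp2e1 in ethanol oxidation (8 of 11 listed tested, 4 higher and 4 lower, median 0.01), Por, which hands electrons to cytochromes P450, differed by -0.10 (adjusted p = 0.46). A further Por probe set had the opposite sign (0.09). The cytochrome b5 reductase Cyb5r3 differed by 0.08 and the mitochondrial superoxide dismutase Sod2 by -0.07 (adjusted p = 0.466 and 0.657). In the list of acetate and acetyl-CoA use (13 of 15 listed tested, 7 higher and 6 lower, median 0.01), Acat1, a mitochondrial thiolase, differed by 0.11, Pdha1, a subunit of pyruvate dehydrogenase, by 0.09, and the monocarboxylate carrier Slc16a3 by 0.14 (adjusted p = 0.379, 0.403 and 0.538). A further Acat1 probe set had the opposite sign (-0.17), and a further Pdha1 probe set differed by 0.29 (adjusted p = 0.287).

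The list on ethanol conjugation, by which small amounts are turned into phosphatidylethanol, sulfate and glucuronide, had 5 tested genes of 9. Of these 1 was higher and 4 lower, with a median of -0.12. That median is the value of Ugt8, which is also in the list of oligodendrocyte and myelin markers. The count need not reflect ethanol conjugation alone. Pld2, a phospholipase D that can join ethanol to phosphatidate, differed by 0.16, the sulfotransferase Sult1a1 by -0.25 and Pld3 by -0.14 (adjusted p = 0.409, 0.469 and 0.519). When water animals 17, 19 and 20 were left out, Sult1a1 differed by -0.05 and Pld3 by -0.02, and without water animal 20 alone by -0.15 and -0.07. A further Pld2 probe set differed by -0.01 and a further Pld3 one by -0.04. Of 18 tested genes in the list on peroxisomes, the organelles that hold catalase, 9 were higher and 9 lower, with a median of 0.01. Not every gene of that list need act in peroxisomes. Abcd2 and Abcd4, transporters of the ABCD family, differed by 0.27 and 0.16, and the assembly factor Pex16 by 0.09 (adjusted p = 0.412, 0.446 and 0.448).

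Oxidation of ethanol and acetaldehyde turns NAD to NADH. Of 19 genes of NADH shuttles and NAD supply 10 were higher and 9 lower (median 0.02). Ldha, a lactate dehydrogenase subunit, differed by 0.11, and the mitochondrial carriers Slc25a11 and Slc25a13 by 0.06 and -0.14 (adjusted p = 0.363, 0.49 and 0.549). A further Slc25a13 probe set had the opposite sign (0.04). In the list of amine and GABA aldehydes (11 tested, 3 higher and 8 lower, median -0.04), Aldh5a1, which oxidises succinate semialdehyde from GABA, differed by -0.10 and the polyamine acetylase Sat1 by 0.09 (adjusted p = 0.653 for both). A further Aldh5a1 probe set had the opposite sign (0.08). In the lysine list (6 tested, 4 higher and 2 lower, median 0.03), Gcdh, Crym and Aass differed by 0.05, 0.07 and -0.05 (adjusted p = 0.656, 0.752 and 0.754), and further Gcdh probe sets by 0.12 and 0.09.

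Of 16 genes of retinoic acid synthesis and breakdown, the pathway of Aldh1a1, 13 were higher and 3 lower in ethanol and 0 passed (median 0.04, against 0.00016 over all genes tested). The retinol dehydrogenase Rdh10 was 0.35 higher, the retinoic acid binding protein Crabp2 0.13 and the receptor Rxrg 0.24 (adjusted p = 0.44, 0.457 and 0.526). With water animals 17, 19 and 20 left out, the Rdh10 difference was 0.03 and that of Rxrg -0.0047. Of 9 genes of formaldehyde and S-nitrosoglutathione handling, the pathway of Adh5, 8 were higher and 1 lower (median 0.05). Gsr, glutathione reductase, had the smallest p of the 125. Its values were 6.86, 7.20 and 7.40 in ethanol and 6.64, 6.89 and 7.18 in water (lowest, median and highest), which overlapped. It was 0.30 ± 0.07 (SE) higher in ethanol and did not pass (adjusted p = 0.173). It was 0.27 higher without water animals 17, 19 and 20 (adjusted p = 0.184). The subunits of the glutathione-making ligase, Gclc and Gclm, differed by 0.11 and -0.15 (adjusted p = 0.402 and 0.464). A further Gclc probe set differed by 0.17 (adjusted p = 0.327). Adhfe1, the other gene of the alcohol dehydrogenase list above the dim level, differed by 0.01 (adjusted p = 0.946).

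**Figure D3:**
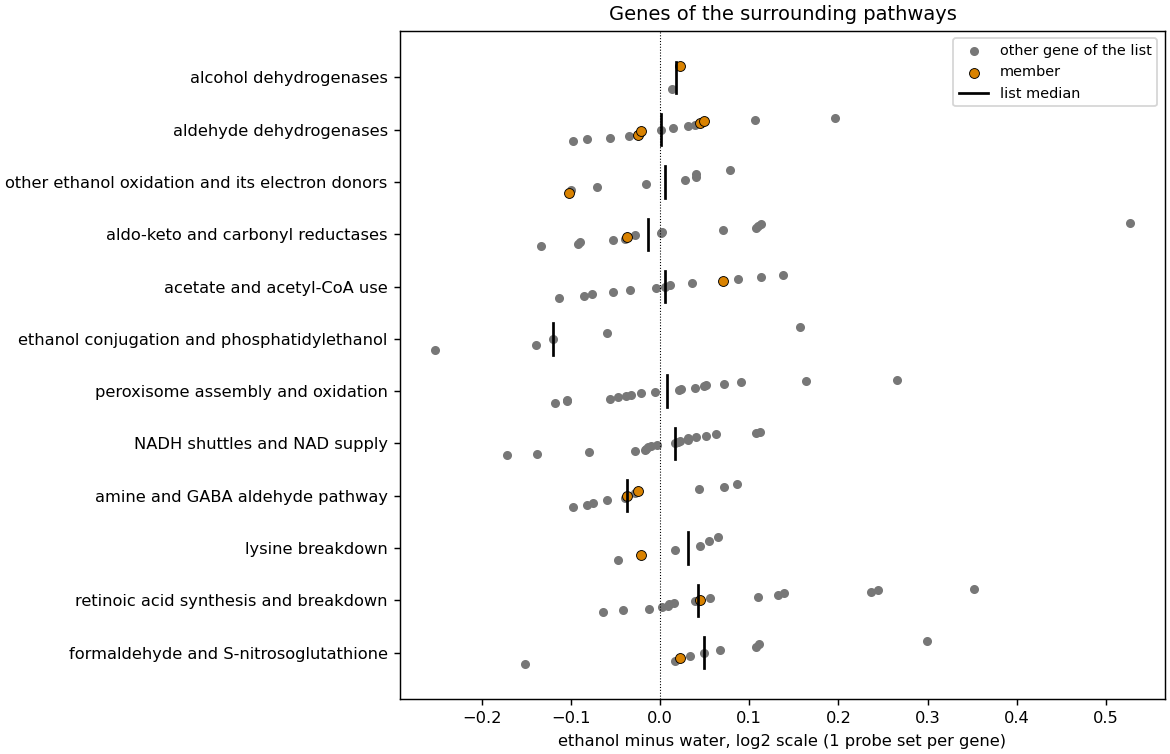
Difference (ethanol minus water, log2 scale, 1 probe set per gene) of each tested gene of the 12 pathway lists; orange points are members, grey points other genes and black bars list medians. List medians lie between -0.12 and 0.05, and Cbr3 at 0.53 is the farthest point from 0.

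Whether the members vary together between animals was read from deviations from the group means over all 20 animals, for the 8 members above the dim level. Of 28 pairs 2 passed (permutation test, 100000 resamples, two-sided, Benjamini-Hochberg over the 28), and 9 lay under an unadjusted p of 0.05. The share of such pairs among all genes tested was not computed. Adh5 and Aldh2 deviated together, with r = 0.65 (permutation p = 0.00289, adjusted p = 0.0405) and Spearman's rho = 0.56 (permutation p = 0.0154, adjusted p = 0.123). Aldh9a1 and Akr1a1 did so too, with r = 0.65 (permutation p = 0.00151, adjusted p = 0.0405) and rho = 0.60 (permutation p = 0.00516, adjusted p = 0.123). Neither relation held without the pair of animals farthest from the median of the first gene. For Adh5 with Aldh2, r was 0.49 without ethanol animal 2 and water animal 17 (permutation, adjusted p = 0.327). For Aldh9a1 with Akr1a1, r was 0.54 without water animals 14 and 20 (permutation, adjusted p = 0.224). With 1 animal left out in turn, r for Adh5 with Aldh2 was lowest without water animal 17 (0.51) and the call was lost in 13 of 20 cases. For Aldh9a1 with Akr1a1 it was lowest without water animal 20 (0.53) and the call was lost in 10 of 20. In the other lost cases r was 0.60 to 0.67 and 0.62 to 0.67, so both calls lie near the threshold.

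Relations with cell type markers were clearer for some members. In bulk tissue, fewer cells of a type and less RNA per cell cannot be told apart. Of 64 relations (8 members by 8 lists with at least 5 genes above the dim level), 11 passed, 8 positive and 3 negative (permutation test, adjusted over the 64), and 27 lay under an unadjusted p of 0.05. The share of such relations among all genes tested was not computed. The 11 of 64 is thus not shown to be particular to these members. Aldh9a1 held 4 of the 11. It went with the mean of 12 microglial genes, with r = 0.82 (permutation p = 9e-05, adjusted p = 0.00341) and rho = 0.73 (permutation p = 0.00134, adjusted p = 0.0172). It went with 5 oligodendrocyte precursor genes, with r = 0.78 (permutation p = 0.00014, adjusted p = 0.00341) and rho = 0.82 (permutation p = 0.00011, adjusted p = 0.00704). It ran against 21 medium spiny neuron genes, with r = -0.79 (permutation p = 0.00016, adjusted p = 0.00341) and rho = -0.71 (permutation p = 0.00172, adjusted p = 0.0183). With 13 astrocyte genes r was 0.68 (permutation p = 0.00363, adjusted p = 0.0293) and rho 0.60 (permutation p = 0.0154, adjusted p = 0.0967).

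Aldh2 ran the other way, positively with medium spiny neuron genes (r = 0.71, rho = 0.76, permutation p = 0.00178 and 0.00033, adjusted p = 0.0228 and 0.00704) and negatively with oligodendrocyte precursor genes (r = -0.71, rho = -0.77, permutation p = 0.00135 and 0.00028, adjusted p = 0.0216 and 0.00704). Akr1a1 resembled Aldh9a1, negatively with medium spiny neuron genes (r = -0.61, rho = -0.56, permutation p = 0.00366 and 0.00651, adjusted p = 0.0293 and 0.0463) and positively with precursor genes (r = 0.65, rho = 0.67, permutation p = 0.00218 and 0.00098, adjusted p = 0.0233 and 0.0157). Cat went with astrocyte genes (r = 0.64, rho = 0.42, permutation p = 0.00541 and 0.0743, adjusted p = 0.0315 and 0.219). Aldh7a1 and Acss2 went with genes of GABAergic and cholinergic interneurons (r = 0.63 and 0.60, permutation p = 0.00476 and 0.00435, adjusted p = 0.0305 for both). Their rho values were 0.61 and 0.66 (permutation p = 0.0061 and 0.00266, adjusted p = 0.0463 and 0.0243). For Adh5 and Aldh1a1 no relation with a list passed, and none passed with endothelial or with pericyte, muscle and meningeal genes.

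Without water animals 17, 19 and 20, 0 of 64 passed, on 17 animals in place of 20. Those animals hold the lowest medium spiny neuron and the highest precursor means of all. Leaving them out narrows the range of these lists, which can by itself lower r. For Aldh9a1, r was then 0.73 with microglial, 0.62 with precursor and -0.58 with medium spiny neuron genes (permutation, adjusted p = 0.0653, 0.0737 and 0.108), and 0.35 with astrocyte genes (adjusted p = 0.529). For Akr1a1 it was 0.69 with precursor and -0.65 with medium spiny neuron genes (permutation, adjusted p = 0.0653 and 0.0737). For Aldh7a1 with interneuron genes it was 0.67, for Acss2 with interneuron genes 0.49 and for Cat with astrocyte genes 0.39. For Aldh2 r was 0.44 and -0.40 with medium spiny neuron and precursor genes (permutation, adjusted p = 0.503 for both). Without the pair of animals farthest from the median of each member 0 of 64 passed too. For Aldh9a1 (water animals 14 and 20 left out) r was 0.66, 0.73 and -0.68 with microglial, precursor and medium spiny neuron genes and 0.48 with astrocyte genes. For Aldh2 (ethanol animal 3 and water animal 17) r was 0.67 with medium spiny neuron and -0.62 with precursor genes. For Akr1a1 (ethanol animal 8 and water animal 20) it was -0.37 with medium spiny neuron and 0.45 with precursor genes. For Cat with astrocyte genes (water animals 12 and 20) it was 0.40. With interneuron genes it was 0.58 for Acss2 (the same animals) and 0.54 for Aldh7a1 (ethanol animal 10 and water animal 20). With each of the 20 animals left out in turn, 5 of the 11 passed every time, namely Aldh9a1 with microglial, precursor and medium spiny neuron genes and Aldh2 with medium spiny neuron and precursor genes. The other 6 each lost the call without water animal 20, among others.

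**Figure D4:**
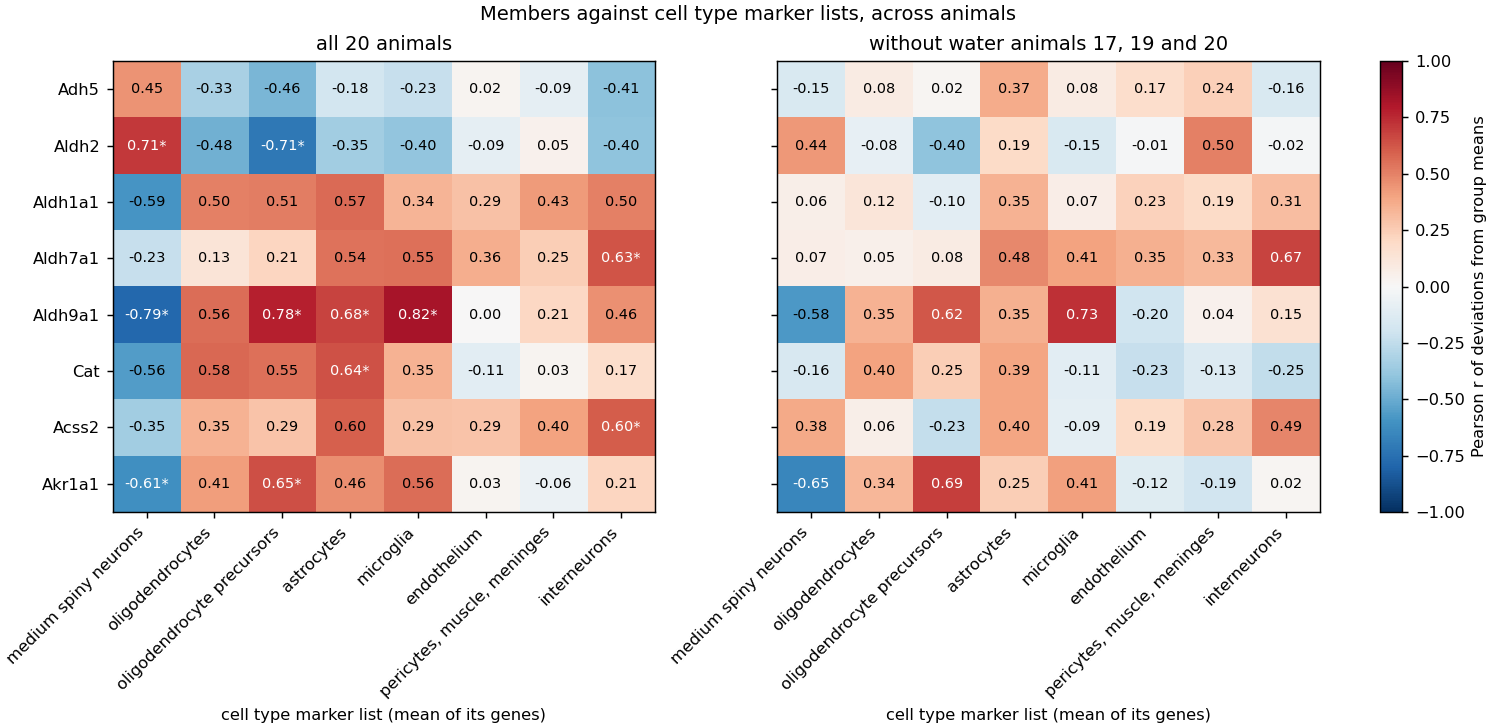
Pearson r of deviations from the group means between 8 members (rows) and 8 cell type marker lists (columns), for all 20 animals (left, asterisk where the adjusted permutation p is under 0.05) and without water animals 17, 19 and 20 (right). The largest sizes on the left are those of Aldh9a1 with microglia, medium spiny neurons and oligodendrocyte precursors, and 0 of 64 pass on the right.

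**Figure D5:**
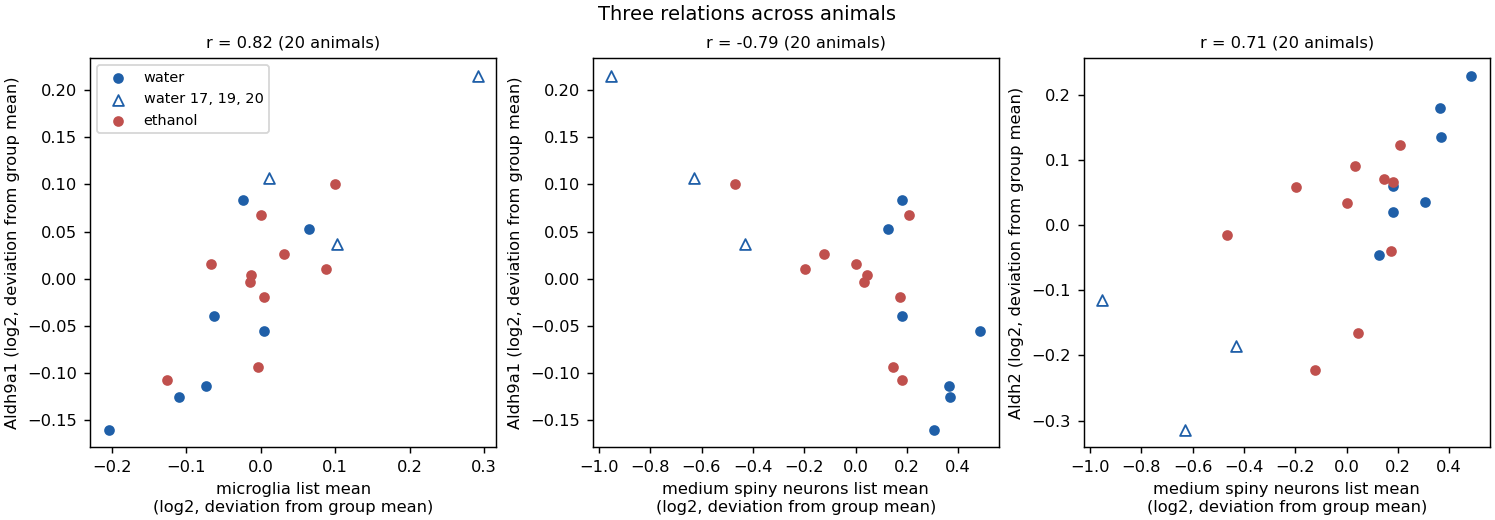
Deviation from the group mean (log2) of Aldh9a1 against the microglial and medium spiny neuron list means and of Aldh2 against the medium spiny neuron list mean, 1 point per animal. Open triangles are water animals 17, 19 and 20, of which 17 and 20 lie farthest to the left in the panels with medium spiny neuron genes.

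The marker lists and an index of RNA quality were also compared between groups. Only the medium spiny neuron list, the oligodendrocyte list and the RNA quality index were used as covariates for the members' differences. The part of the other lists was not tested. The medium spiny neuron mean (21 of 22 listed genes) was 12.17 to 12.84 in ethanol and 11.41 to 12.85 in water, a difference of 0.27 (permutation p = 0.134, adjusted p = 0.257 over 10 measures), and -0.02 without water animals 17, 19 and 20. Those animals were set apart by their low values of this same list, so leaving them out was bound to lower this difference. The microglial mean (12 of 12 genes) was 9.0 to 9.22 in ethanol and 8.99 to 9.48 in water, a difference of -0.07 (permutation p = 0.154, adjusted p = 0.257), and -0.01 when those animals were left out. The precursor mean (5 of 7 genes) was 9.47 to 9.78 in ethanol and 9.52 to 9.91 in water, a difference of -0.14 (permutation p = 0.0186, adjusted p = 0.186), and -0.06 without water animals 17, 19 and 20. The same animals held the highest precursor means of the water group. With the medium spiny neuron mean as a covariate Aldh2 differed by -0.02 and Aldh9a1 by 0.03, both with the sign turned, Aldh1a1 by 0.18 and Cat by -0.06, and 0 members passed. The mean 3' minus 5' value of the actin, Gapdh and hexokinase control probe sets, which grows as RNA degrades, was 1.03 to 1.35 in ethanol and 1.0 to 1.46 in water (difference -0.13, permutation p = 0.0378, adjusted p = 0.189). With it as a covariate Cat differed by -0.12 (adjusted p = 0.746) and 0 members passed.

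Genes most like each member were taken as the pair with the highest r over the same deviations among 10745 other genes. They were chosen for that value, so no test applies. For Aldh9a1 they were Rhbdd2 (r = 0.91, rho = 0.87) and Tom1 (r = 0.89, rho = 0.89), and for Akr1a1 Psmd10, a proteasome subunit (r = 0.90, rho = 0.88), and Pomgnt2 (r = 0.86, rho = 0.86). For Acss2 they were Cercam (r = 0.90, rho = 0.80) and Etfbkmt (r = 0.87, rho = 0.79), for Aldh2 Rcan1, an inhibitor of calcineurin (r = 0.88, rho = 0.87), and Rnf5 (r = 0.87, rho = 0.79), and for Cat Vps4b (r = 0.87, rho = 0.77) and Setd5 (r = 0.85, rho = 0.76). For Aldh7a1 they were Mif (r = 0.86, rho = 0.85) and Atp5pf, a subunit of ATP synthase (r = 0.86, rho = 0.84), for Aldh1a1 Rictor (r = 0.83, rho = 0.81) and Insig1 (r = 0.81, rho = 0.77), and for Adh5 Pigp (r = 0.82, rho = 0.78) and Lsm3 (r = 0.80, rho = 0.85). Without water animals 17, 19 and 20 these 16 values of r lay between 0.52 (Aldh1a1 with Insig1) and 0.88 (Akr1a1 with Psmd10).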

How the data were processed

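RNA of 20 animals was measured on 1-colour Affymetrix arrays, 10 per group. Per the labels' protocols, Trizol and a Qiagen column yielded the RNA, of which 50 ng was labelled by 3' in vitro transcription. Per the submitters' processing notes the authors used RMA, with its software and chip definition not given in the sources used here. Deposited values are on the log2 scale (3.89 to 16.25). A shift common to most genes cannot be seen after RMA.

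The platform annotation names 1 gene for 20832 of 31099 probe sets, several for 436 and none for 9774. A further 57 are controls. RefSeq (GRCr8) held the gene identifier of 20764, with 0 symbols changed. Without controls and the dimmest 33.3%, 20695 probe sets and 10746 genes were tested. RMA values give no signal over background, so dim is a relative term. Columns not used numbered 0.

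Groups were compared with limma 3.58.1 (R 4.3.3; eBayes after lmFit, with no covariate, two-sided), and p-values were adjusted by Benjamini-Hochberg across the probe sets tested. Correlations used permutations within groups (Python 3.11.15, scipy 1.17.1, numpy 2.4.6). Scripts were tested on simulated data. Named genes were every member, per pathway list the 3 non-members of smallest p, and the 2 genes most like each member. The members and lists were chosen with earlier results of these data known. Alternatives varied the filter on dim probe sets, the normalization, the variance model, weights for arrays, the threshold, the choice of probe set, covariates and the arrays used. Leaving out each animal in turn from the correlations was added after seeing the data. Water animals 17, 19 and 20, and 12, 17 and 20, were left out because earlier results had set them apart. The number of arrays sets the precision.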

Additional observations from a re-analysis of the deposited data

Results flagged for a closer look

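In each group of 10 animals the highest and the lowest value were set against the spread of the others (Dixon's test at 95%), for the members, the named pathway genes, the marker lists and the 3' minus 5' value. Of 106 groups tested 11 held a value that stood apart, where chance gives about 1 in 20. The single member among them was dim. The dimmer Adh1c probe set was at 5.78 in water animal 21, with the next water value at 5.50.

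Water animal 20 stood apart as the highest of its group for 6 genes. These were Adhfe1 at 10.29 (next 9.98), Dcxr at 8.84 (next 8.41), Sult1a1 at 9.47 (next 8.85), Pld3 at 11.54 (next 11.03), Aldh5a1 at 11.96 (next 11.44) and Gclm at 8.70 (next 8.24). This animal also had the lowest mean of medium spiny neuron genes (11.41) and the lowest median correlation with other arrays (0.972). Water animal 17 was the lowest for Pex16 at 8.30 (next 8.51) and Ldha at 12.47 (next 12.66), and water animal 12 for Pld2 at 7.45 (next 7.87). Ethanol animal 6 was the lowest of its group for Adhfe1, at 9.63 (next 9.84). The part of tissue makeup or array quality in these values was not tested.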

How the results depend on the processing

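No setting called a member or a pathway gene. The counts of members and of pathway genes past the threshold were 0 under each alternative tried and with each animal left out, and the smallest adjusted p of any named gene was 0.074 (Gsr, without ethanol animal 3). The filter, the variance model and a term for runs of arrays in the order of deposit cannot change a fitted difference here. Those runs were read only from how the groups alternate in that order, and the labels name no batch. Under the other 9 alternatives, 336 differences kept their sign and 27 turned it. Aldh2 turned with array weights (-0.00085), with the medium spiny neuron list as covariate (-0.0226), without water animals 17, 19 and 20 (-0.0385) and without 12, 17 and 20 (-0.0184). Adh5 turned with array weights (-0.0013) and without 17, 19 and 20 (-0.0123). Aldh9a1 turned with array weights (0.0189), with the oligodendrocyte or medium spiny neuron list as covariate (0.0044 and 0.0279), without 17, 19 and 20 (0.026) and without 12, 17 and 20 (0.0283). Without 17, 19 and 20, Sod2 (0.0281), Dhrs3 (-0.0162), Slc25a13 (0.0252), Aldh5a1 (0.0491), Crym (-0.0618) and Rxrg (-0.0047) turned too. With the medium spiny neuron list as covariate Sod2 (0.0062), Aldh5a1 (0.0208) and Crym (-0.0276) turned, without 12, 17 and 20 Aldh5a1 (0.0075), Sat1 (-0.0351) and Crym (-0.0312), and with array weights Sat1 (-0.0394) and Crym (-0.0236). Adhfe1 turned with the 3' minus 5' value as covariate (-0.0134) and Acat1 with the mean over its probe sets (-0.0272). With 1 animal left out Aldh7a1 ranged from -0.0391 to 0.0025 and Adhfe1 from -0.0065 to 0.0566. The cause was not tested.

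Over all probe sets 20 passed. This count was 10 with the dimmest 50% left out (fewer tested), 38 with array weights, 8 with the 3' minus 5' value as covariate, 48 with the medium spiny neuron list as covariate, 50 without 17, 19 and 20 and 32 at an adjusted p of 0.1, and 14 to 24 with 1 animal left out. Of the 2 pairs of members that passed, 0 did without 17, 19 and 20, by Spearman or without the 2 farthest animals, and 1 with the 3' minus 5' value removed; the count was 0 to 5 with 1 animal left out. Of relations with cell type lists 11 passed, against 0 without 17, 19 and 20 or without the 2 farthest animals, 18 with group means kept, 20 with the 3' minus 5' value removed, and 5 to 17 with 1 animal left out. No paired analysis was made, since the labels name no pairs of animals across the groups. Aldh1a1 lay below the median of all probe sets, so it gave no value with the dimmest 50% left out. Dim signal limits what can be said of Cyp2e1 and Adh1c.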
